A study of Mus musculus with 12 samples.

Results

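The genes described here are 10 genes of the Nrf2 antioxidant response, Nfe2l2, Keap1, Osgin1, Srxn1, Gclm, Gclc, Txnrd1, Nqo1, Hmox1 and Gpx2. They were chosen by name, as the rows of the count table whose GENCODE symbol is on this list, out of 55414 genes in the table. All 10 were found and all 10 passed the filter on low counts. The list was drawn up with earlier results of these libraries in view, and the comparison that led to it is not recorded. The p-values below therefore describe single genes and are not independent evidence that the list as a whole moved. The level of all 10 genes is given in every group.

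Crypts of the small intestine of C57BL/6J mice were dissociated, sorted into cell fractions and profiled by bulk RNA-seq, in 12 libraries and 4 groups of 3. Paneth cells (PC) secrete antimicrobial peptides at the crypt base and were gated on CD24, cKIT and a side scatter from medium to high, after exclusion of cells that stained for CD31, CD45 or TER119. The non-Paneth cells (nonPC) are the other sorted crypt cells, and no gate for them is given in the sources used here. In both fractions, cells of wild-type (WT) mice and of GRKO mice were compared, which answers how loss of the glucocorticoid receptor (GR, encoded by Nr3c1) and the cell fraction bear on each gene. GRKO mice lack the receptor where the villin promoter is active, that is in intestinal epithelial cells, while other cells of the gut keep it. All groups came from naive, untreated mice, which the methods give as 8 to 12 weeks old. The genotype was read from the sample titles, because a separate genotype field gives every PC library as WT and every nonPC library as GRKO. The labels do not tie each library to an animal, so the p-values measure the spread between the libraries of a group, part of which may be technical. The labels name no batch, and any batch that ran along with genotype or fraction cannot be told apart from them.

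Levels are given as TMM CPM, that is CPM after TMM scaling, a scaling that divides out differences in composition between libraries. The total was 11126297 to 15910292 counts per library. Nr3c1 stood at 40.9, 50.4 and 54.1 TMM CPM in WT PC and at 7.98, 5.82 and 15.4 in GRKO PC. It was 110, 126 and 131 in WT nonPC and 20, 13.1 and 24.5 in GRKO nonPC, so that the GRKO libraries were lower in both fractions without overlap. The 5 Paneth cell markers Lyz1, Mmp7, Ang4, Itln1 and Mptx2 summed to 199000 to 365000 TMM CPM in the PC libraries of both genotypes and to 198 to 686 in the nonPC libraries. The 6 enterocyte markers summed to 16600 to 19200 in WT nonPC and to 406 to 1430 in the PC libraries of both genotypes. The female-specific Xist was at 127 and 257 CPM in the PC and nonPC libraries of WT replicate 2 and at 0.52 or less in the other 10, so both WT libraries numbered 2 came from another animal, or animals, than the other WT libraries. Each WT group thus mixed the sexes, whereas no GRKO library carried Xist at such a level. Sex was therefore unbalanced between genotypes, and its part in the genotype differences was not tested. WT PC replicate 2 also stood apart in enterocyte markers, whose sum in this library, 1430 TMM CPM, was the highest of WT PC. Its Apoa1 was at 558 TMM CPM, against 33.6 and 55.3 in WT PC replicates 1 and 3. Without this library no call of the 10 genes changed in any comparison.

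Nfe2l2 encodes Nrf2, a basic leucine zipper factor that pairs with small Maf proteins and binds antioxidant response elements in front of detoxification and redox genes. Keap1, the adaptor of a Cul3 ubiquitin ligase, holds Nrf2 low until electrophiles or oxidants modify it, so Nrf2 activity is set largely at the level of the protein and not of its mRNA. The targets make glutathione, keep thioredoxin and peroxiredoxins reduced, and clear quinones and heme. Gut epithelium is exposed to dietary electrophiles and microbial oxidants and is a known site of this response.

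Levels of different genes were set side by side per kilobase of exon. On this scale Gpx2, the glutathione peroxidase of the gastrointestinal epithelium, was the highest of the 10 genes in each group, with means between 143 and 177 TMM CPM per kb, at the 98.5th percentile or above among 13036 ranked genes. Txnrd1, the cytosolic thioredoxin reductase, followed with means of 25.1 to 38.7 TMM CPM per kb except in WT nonPC, where Nfe2l2 had 37.9 and Txnrd1 36.7, a difference within the spread of the libraries. Hmox1 was the lowest in all groups, at 0.95 TMM CPM per kb in WT PC, 1.91 in GRKO PC, 0.0617 in WT nonPC and 0.231 in GRKO nonPC. The widest change of rank for a gene between groups was that of Osgin1 and Srxn1. Osgin1 lay at the 34.6th percentile in WT PC and the 82.8th in WT nonPC, and Srxn1 at the 51.7th and the 88.6th.

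**Figure D1:**
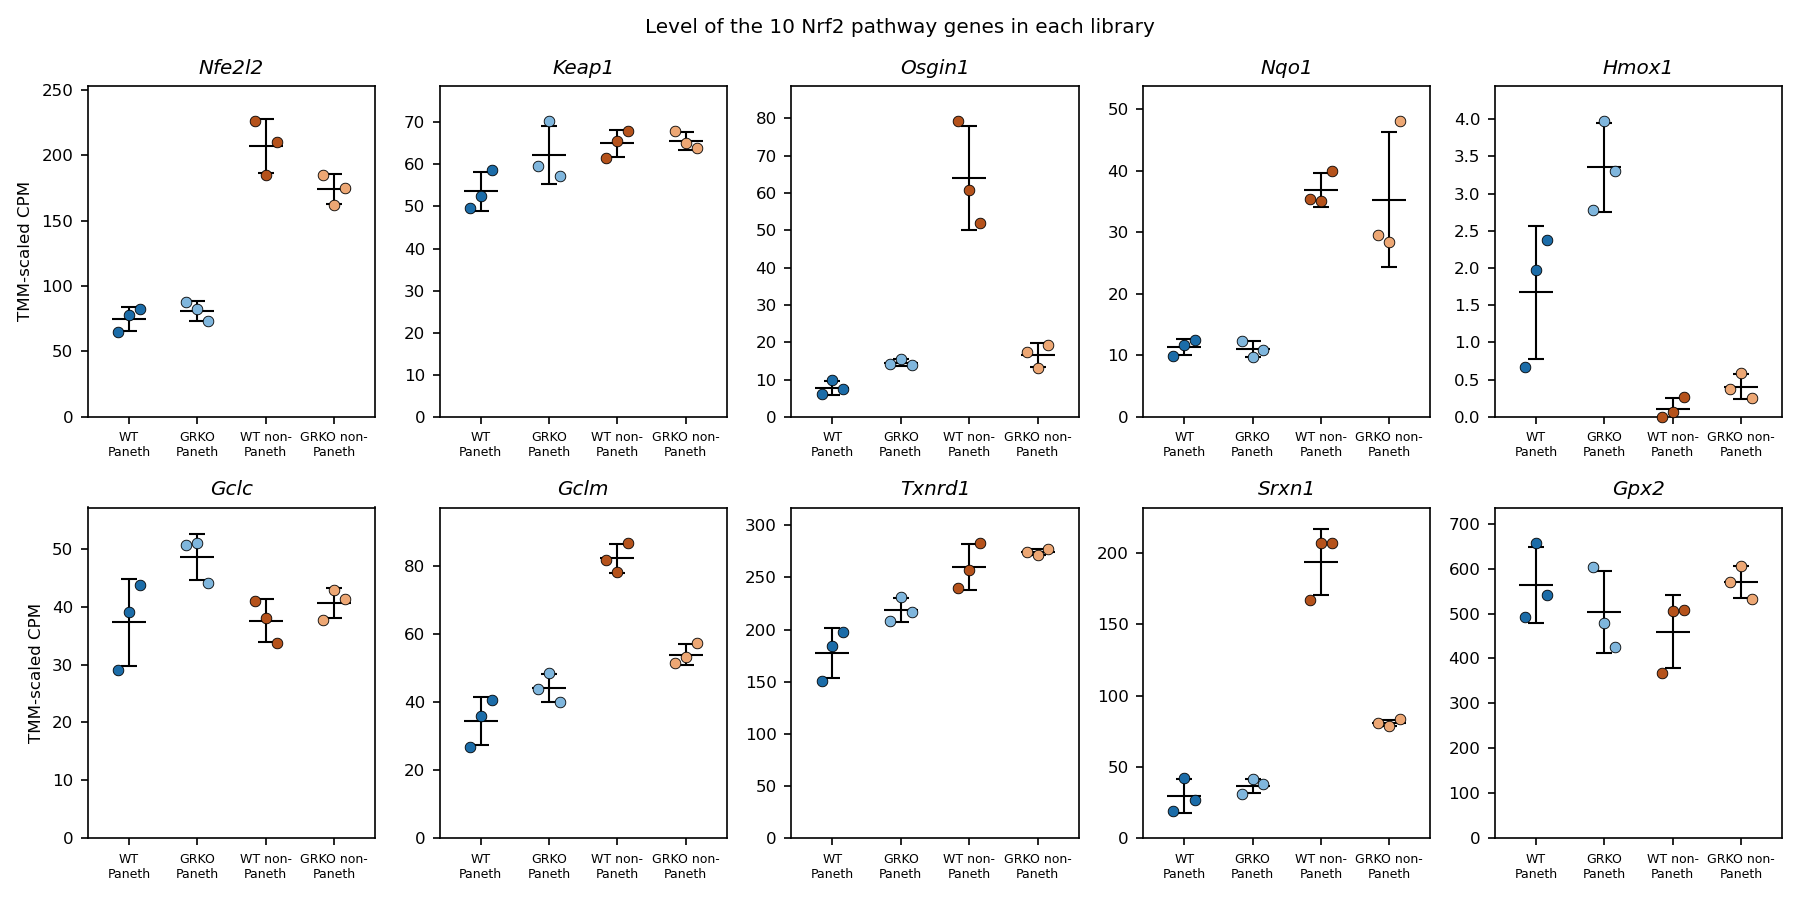
TMM-scaled CPM of the 10 genes (y axis, linear, from 0) in the 4 groups (x axis); each point is a library, the long line the mean of 3 libraries and the whiskers 1 SD. Osgin1 and Srxn1 are far higher in WT nonPC (means of 64 and 193 TMM CPM) than in the other groups, whereas Gpx2 overlaps between WT PC and WT nonPC.

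To show what the promoters of these genes hold, the 1000 bases before the start site of each gene's canonical transcript, which for Osgin1 and Txnrd1 lies inside the gene's full span, were searched in the GRCm39 mouse genome for the core of the antioxidant response element, TGACNNNGC or TGAGNNNGC, on both strands. The second form was added after a first search with the first form alone. Among the 10 genes the first form occurs only in Nfe2l2, Gclm and Txnrd1. All cores of Osgin1, Srxn1, Nqo1 and Hmox1 are of the added form. The core occurs in 7 of the 10 genes, against 56.2% of 21757 protein-coding promoters, so its presence sets the list little apart. A stricter form, TGACTCAGC or TGAGTCAGC, was found in Osgin1 and Srxn1, against 2.23% of all promoters. The strict form contains the letters of an AP-1 site, so both motifs overlap. No core was found in this window of Keap1, Gclc and Gpx2. The sites nearest to the start of the genes that the results turn on are printed below, 5′ to 3′ on the strand that carries the match, with the core in capitals.
Osgin1, GRCm39 chr8:120163779-120163803, minus strand: cataagcgTGAGTCAGCaggggccc
Srxn1, GRCm39 chr2:151947391-151947415, plus strand: attcacccTGAGTCAGCggccgggc
Gclm, GRCm39 chr3:122039064-122039088, minus strand: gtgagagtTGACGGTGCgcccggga
Nqo1, GRCm39 chr8:108130257-108130281, minus strand: agtcacagTGAGTCGGCaaaatttg
Hmox1, GRCm39 chr8:75820173-75820197, minus strand: cgcccagcTGAGCCGGCgttctcgc
Nfe2l2, GRCm39 chr2:75535231-75535255, minus strand: agcccaccTGACTCCGCcatgcccc
The Osgin1 core lies 70 to 62 bases before the start, that of Srxn1 45 to 37, that of Gclm 54 to 46, that of Hmox1 60 to 52, that of Nfe2l2 262 to 254 and that of Nqo1 339 to 331. The Osgin1 and Srxn1 cores are the same 9 letters, TGAGTCAGC. A match is a description of letters and not a bound site.

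Nfe2l2 (ENSMUSG00000015839, chromosome 2, 75504739 to 75534985, GRCm39) was lower in PC than in nonPC. Its level was 65, 77.6 and 82.5 TMM CPM in WT PC and 226, 185 and 210 in WT nonPC. In GRKO it was 88.1, 82.3 and 73 in PC and 185, 162 and 175 in nonPC. All PC libraries lay below all nonPC libraries in both genotypes. Nfe2l2 was 2.76-fold lower in PC than in nonPC of WT mice (log2 fold change -1.46, SE 0.128, edgeR adjusted p = 2.07e-07) and 2.15-fold lower in GRKO mice (-1.10, SE 0.127, adjusted p = 7.55e-06). Between genotypes it did not pass the test, with log2 differences of 0.11 in PC (adjusted p = 0.592) and -0.25 in nonPC (adjusted p = 0.13). DESeq2 called the latter (-0.31, adjusted p = 0.0397).

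Keap1 (chromosome 9, 21141026 to 21150679) passed the test in no comparison. It was 49.6, 52.5 and 58.7 TMM CPM in WT PC and 61.4, 65.6 and 67.9 in WT nonPC. In GRKO it ranged from 57.3 to 70.2 in PC and from 63.8 to 67.9 in nonPC. The WT PC libraries lay below the WT nonPC libraries without overlap, yet the log2 difference of -0.28 (SE 0.114) did not pass the edgeR test (adjusted p = 0.0534). It did pass in 5 of 20 alternatives, among them DESeq2 (adjusted p = 0.0448) and the fits without GRKO PC replicate 1 (0.0459) or 2 (0.0399) or without WT PC replicate 3 (0.0368). The count ratio of Nfe2l2 to Keap1 within a library needs no scaling. This ratio was 1.31, 1.48 and 1.41 in WT PC and 3.68, 2.82 and 3.1 in WT nonPC, and it was 1.48, 1.17 and 1.27 in GRKO PC and 2.73, 2.49 and 2.74 in GRKO nonPC. No PC library reached a nonPC library. The log2 ratio differed by -1.19 in WT and -1.02 in GRKO, with p = 0.1 in each case in a two-sided exact permutation test, the smallest p that 3 against 3 libraries can give.

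Osgin1, the oxidative stress-induced growth inhibitor (chromosome 8, 120152470 to 120173000), showed the largest difference between genotypes of the 10 genes in nonPC among those that passed the test. It was 79.2, 60.8 and 52 TMM CPM in WT nonPC and 17.3, 13 and 19.2 in GRKO nonPC. The lowest WT library thus stood well above the highest GRKO library. Osgin1 fell 3.88-fold in GRKO nonPC (log2 fold change -1.96, SE 0.189, edgeR adjusted p = 7.92e-06). In PC the order was the opposite, with 6.18, 9.9 and 7.34 TMM CPM in WT and 14.1, 15.6 and 13.9 in GRKO. These groups did not overlap either. Osgin1 was 1.88-fold higher in GRKO PC (log2 fold change 0.91, SE 0.214, adjusted p = 0.0448), a call that was kept in 9 of 20 alternatives, with adjusted p up to 0.224 when GRKO PC replicate 2 was left out. It was also lost without GRKO PC replicate 3, without WT PC replicate 1 or 3, without any GRKO nonPC replicate and without WT nonPC replicate 2 or 3. The difference between the genotype effects of both fractions was 2.87 on the log2 scale (SE 0.284, adjusted p = 5.13e-05), and it passed in all 19 alternatives. Osgin1 was 8.25-fold lower in PC than in nonPC of WT mice (log2 fold change -3.04, SE 0.21, adjusted p = 2.04e-08). In GRKO mice this log2 difference was -0.18 (SE 0.194) and did not pass (adjusted p = 0.505).

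Srxn1, the sulfiredoxin that repairs overoxidised peroxiredoxins (chromosome 2, 151947436 to 151957687), followed the same order in nonPC. It was 167, 207 and 207 TMM CPM in WT nonPC and 80.8, 79 and 83.3 in GRKO nonPC. All GRKO libraries were lower. Srxn1 fell 2.39-fold (log2 fold change -1.25, SE 0.208, edgeR adjusted p = 0.000427). In PC it was 19.1, 42.3 and 27 TMM CPM in WT and 31.2, 41.3 and 37.8 in GRKO, which overlap (log2 difference 0.33, adjusted p = 0.348). The highest WT value came from WT PC replicate 2, which had the highest enterocyte marker sum of its group and Xist at 127 CPM. The part of either trait in this value was not tested. Without this library the difference was 0.68 (adjusted p = 0.056) and the groups no longer overlapped. The difference between these genotype effects was 1.58 (SE 0.3, adjusted p = 0.00331), and 1.94 without WT PC replicate 2 (adjusted p = 0.000123). Srxn1 was lower in PC in both genotypes, by 6.59-fold in WT (log2 fold change -2.72, SE 0.223, adjusted p = 1.95e-07) and by 2.2-fold in GRKO (-1.14, SE 0.212, adjusted p = 0.000712). The Osgin1 and Srxn1 calls in nonPC held in all 20 alternatives, with log2 fold changes of -2.15 to -1.67 and of -1.41 to -0.97.

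Gclm and Gclc encode the modifier and the catalytic subunit of glutamate-cysteine ligase, the rate-limiting enzyme of glutathione synthesis, and the 2 subunits behaved differently. Gclm (chromosome 3, 122039126 to 122065061) was 81.7, 78.3 and 86.8 TMM CPM in WT nonPC and 51.4, 53.3 and 57.3 in GRKO nonPC. All GRKO libraries were lower. Gclm fell 1.52-fold (log2 fold change -0.61, SE 0.137, edgeR adjusted p = 0.00302), a call that was lost in 1 of 20 alternatives, scaling by library totals (-0.32, adjusted p = 0.0988). In PC it was 26.7, 35.9 and 40.7 in WT and 44, 48.5 and 40 in GRKO. These overlap, and the log2 difference of 0.36 did not pass (adjusted p = 0.126). The difference between the genotype effects was 0.97 (SE 0.198, adjusted p = 0.00433). Gclm was 2.39-fold lower in PC than in nonPC of WT mice (log2 fold change -1.26, SE 0.142, adjusted p = 2.83e-06), and in GRKO mice this difference was -0.29 (adjusted p = 0.115, or 0.0387 without WT PC replicate 1).

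Gclc (chromosome 9, 77661797 to 77701770) passed in no comparison, though a fit on only the GRKO groups put it higher in PC (0.35, adjusted p = 0.0294) and scaling by library totals lower (-0.72). Its level was 29, 39 and 43.8 TMM CPM in WT PC and 41, 38 and 33.7 in WT nonPC. In GRKO it was 50.7, 51 and 44 in PC and 37.7, 42.8 and 41.3 in nonPC. The GRKO PC libraries all lay above the WT PC libraries, but by a log2 difference of 0.38 that did not pass (edgeR adjusted p = 0.116). The count ratio of Gclm to Gclc was 1.99, 2.06 and 2.58 in WT nonPC and 1.36, 1.25 and 1.39 in GRKO nonPC. It was 0.921, 0.921 and 0.93 in WT PC and 0.869, 0.952 and 0.91 in GRKO PC. The ratio was thus highest in WT nonPC, lower in GRKO nonPC and lowest in PC, where the genotypes overlap. The log2 ratio differed by -0.72 between genotypes in nonPC and by -1.25 between fractions in WT, each without overlap and with p = 0.1 in a two-sided exact permutation test, again the smallest possible. In PC it differed by -0.02 between genotypes (exact permutation p = 0.7).

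**Figure D2:**
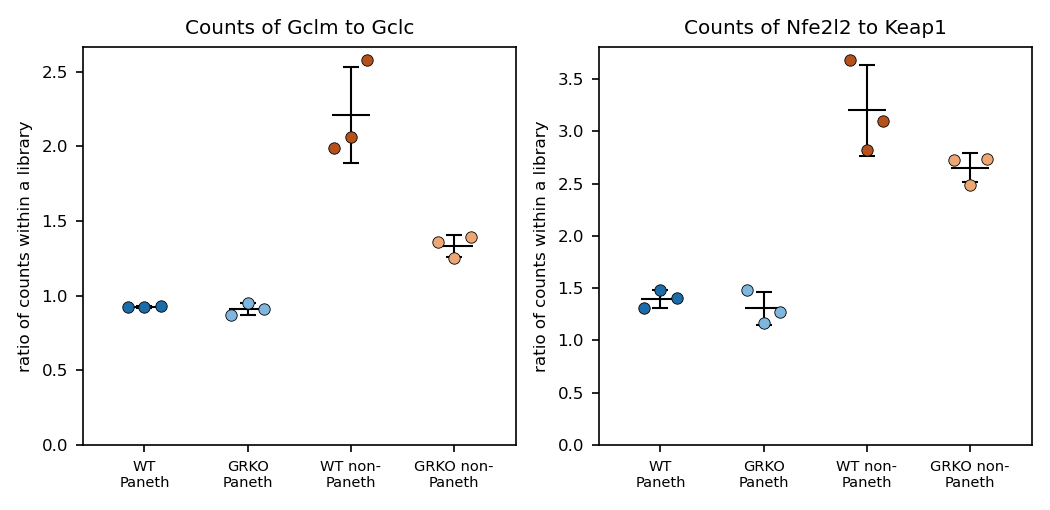
Ratio of counts of Gclm to Gclc and of Nfe2l2 to Keap1 within each library (y axis, linear ratio with no scaling between libraries) in the 4 groups (x axis); points are libraries, long lines are means of 3 libraries and whiskers are 1 SD. Gclm to Gclc averages 2.21 in WT nonPC and 1.33 in GRKO nonPC, and 0.924 and 0.91 in WT and GRKO PC.

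Txnrd1 (chromosome 10, 82669785 to 82733546) was 151, 184 and 198 TMM CPM in WT PC and 240, 257 and 283 in WT nonPC. It was 208, 231 and 217 in GRKO PC and 274, 271 and 277 in GRKO nonPC. PC libraries were below nonPC libraries in both genotypes. Txnrd1 was 1.46-fold lower in PC of WT mice (log2 fold change -0.55, SE 0.121, edgeR adjusted p = 0.00141). In GRKO the log2 fold change was -0.32 (adjusted p = 0.0431), a call that was lost in 15 of 20 alternatives, with adjusted p up to 0.242. Among these were the fits without any of the GRKO PC, GRKO nonPC or WT nonPC replicates. Between genotypes the log2 differences of 0.30 in PC (adjusted p = 0.134) and 0.08 in nonPC (adjusted p = 0.651) did not pass.

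Nqo1, the quinone reductase that is often used as a readout of Nrf2 activity (chromosome 8, 108113835 to 108129934), differed between fractions, with no detectable difference between genotypes. It was 9.88, 11.6 and 12.5 TMM CPM in WT PC and 35.4, 35 and 40 in WT nonPC. It was 12.3, 9.79 and 10.9 in GRKO PC and 29.5, 28.4 and 48 in GRKO nonPC. All PC libraries lay far below all nonPC libraries, and the genotypes overlap in both fractions. Nqo1 was 3.25-fold lower in PC of WT mice (log2 fold change -1.70, SE 0.195, edgeR adjusted p = 3.4e-06) and 3.22-fold lower in GRKO mice (-1.69, SE 0.194, adjusted p = 7.22e-06). The genotype difference was -0.05 in PC (adjusted p = 0.91) and -0.06 in nonPC (adjusted p = 0.821).

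Hmox1, the inducible heme oxygenase (chromosome 8, 75820241 to 75827217), was the 1 gene of the 10 that the test called higher in PC. Its level rests on few reads, with 7, 16 and 20 counts in WT PC and 23, 45 and 35 in GRKO PC. WT nonPC held 0, 1 and 5 counts and GRKO nonPC 8, 14 and 6. On the TMM CPM scale the PC libraries ranged from 0.665 to 3.97 and the nonPC libraries from 0 to 0.587, with no overlap between the fractions. The fitted log2 fold change was 3.74 in WT (SE 0.714, edgeR adjusted p = 0.000442) and 3.02 in GRKO (SE 0.543, adjusted p = 0.000437). Hmox1 passed the filter on low counts through its PC libraries, where it was high, so these calls are not independent of the filter. Between WT fractions it was not tested under the filter of at least 10 counts in every library of a group compared. A fit on only the WT groups did not test it either. Between genotypes the log2 differences of 1.04 in PC (adjusted p = 0.211) and 1.75 in nonPC (adjusted p = 0.0854) did not pass. The difference in nonPC passed without WT nonPC replicate 3, which holds 5 of the 6 WT counts (3.36, adjusted p = 0.0216). Among markers of cells known for Hmox1, the macrophage receptor gene Csf1r was at 0 in all 6 PC libraries, Adgre1 was at 0.176 TMM CPM or less, and the globin gene Hba-a1 was at 0 in all 12 libraries. The sum of 4 macrophage markers, carried by Lyz2, was 7.32 to 17.5 in PC and 0.326 to 2.23 in nonPC. Another of the 4, Cd68, averaged 1.75 TMM CPM in WT PC and 1.62 in WT nonPC, and 0.531 and 0.535 in GRKO. The 3 lymphocyte and other leukocyte markers summed to 0.57 to 5.68 in WT PC and 2.08 to 28.8 in GRKO PC. In nonPC they summed to 0.637 to 1.05 in WT and 0.302 to 6.08 in GRKO. The part of such cells in the Hmox1 level was not tested.

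Gpx2 (chromosome 12, 76839107 to 76842326) was 492, 657 and 541 TMM CPM in WT PC and 367, 506 and 507 in WT nonPC. It was 604, 480 and 426 in GRKO PC and 571, 605 and 533 in GRKO nonPC. The fractions overlap in both genotypes. Only the GRKO and WT nonPC libraries did not overlap, GRKO being higher. None of its differences passed the edgeR test with TMM scaling, the nearest being 0.29 between fractions in WT (adjusted p = 0.153) and 0.31 between genotypes in nonPC (adjusted p = 0.154).

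Taking the 10 genes by comparison, in WT mice 1 was higher and 6 were lower in PC than in nonPC, with a median log2 fold change of -0.90. Over all 13057 genes tested, the edgeR test called 50.7% in this comparison, 24% higher and 26.7% lower, with a median of 0.01. In GRKO mice 1 gene was higher and 4 were lower, with a median of -0.23, against 39.2% of all genes, 17.9% higher and 21.2% lower, and a median of -0.08. The gene that was higher in both genotypes was Hmox1, which passed the filter on low counts through its PC libraries. WT PC and WT nonPC libraries did not overlap for 57.5% of all genes, and GRKO PC and GRKO nonPC libraries for 52.6%. Scaling by library totals moved the median of all genes to -0.68 in WT and to -1.05 in GRKO. With that scaling 1 gene of the list was higher and 9 were lower in either genotype, and over all genes 1097 were higher and 7895 lower in WT (3133 and 3491 with TMM) and 816 higher and 9969 lower in GRKO (2343 and 2773). Markers of other cells also differed between fractions. Tuft cell markers summed to 107 to 291 TMM CPM in WT PC against 2.04 to 6.22 in WT nonPC, and 4 of 4 stem cell markers were called higher in WT PC. Their part in the results was not tested. In bulk samples fewer cells of a type and less RNA per cell cannot be told apart.

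**Figure D3:**
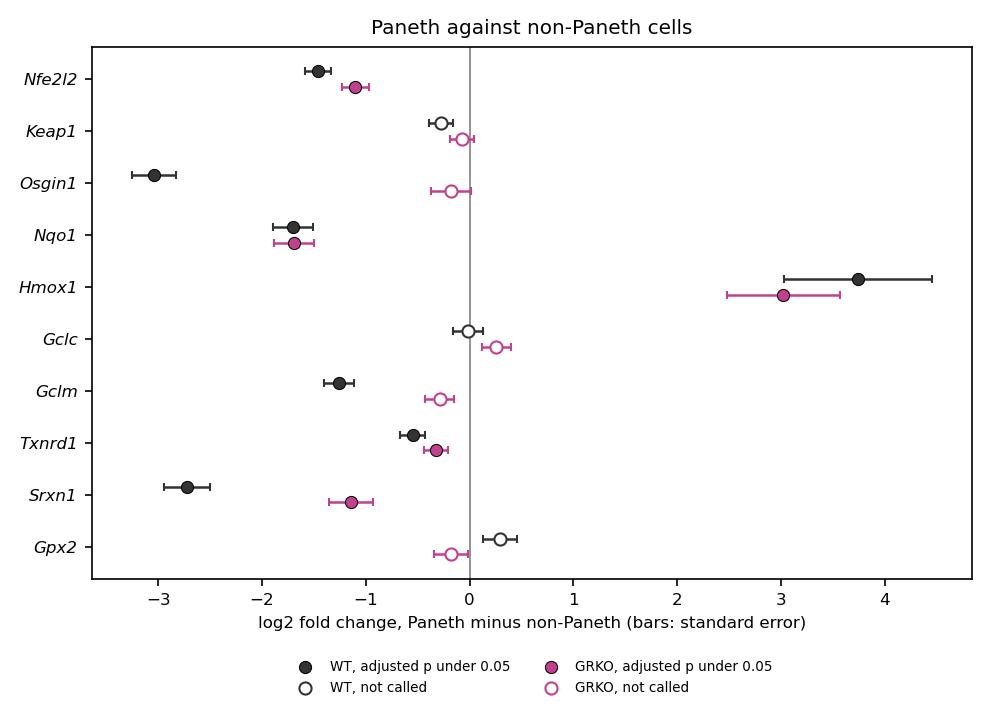
Log2 fold change of PC against nonPC (x axis) for the 10 genes in WT and in GRKO mice, with bars of 1 SE from the edgeR fit and filled circles for adjusted p under 0.05. Osgin1 moves from -3.04 in WT to -0.18 in GRKO and Srxn1 from -2.72 to -1.14, while Nqo1 stays at -1.70 and -1.69.

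In nonPC, 3 of the 10 genes (Osgin1, Srxn1 and Gclm) fell in GRKO and 0 rose by the edgeR test, with a median log2 fold change of -0.02. With the threshold of 0.05 set on unadjusted edgeR values the count was 4. The added gene was Hmox1, which was higher in GRKO nonPC (log2 fold change 1.75). DESeq2 called 4 lower, and its added gene was Nfe2l2 (-0.31). Over all genes 37.3% were called, 17.5% higher and 19.8% lower, and 55.3% had groups that did not overlap, so that 3 of 10 is below the share among all genes. Scaling by library totals moved the median of all genes to 0.31, from 0.02 with TMM, and called 3 of the 10 higher (Hmox1, Gclc and Gpx2) and 2 lower (Osgin1 and Srxn1), and 4345 of all genes higher and 1478 lower (2283 and 2586 with TMM). In PC, Osgin1 was the 1 gene of 10 called, and it was higher, against 3.22% of all genes, 1.7% higher and 1.52% lower. The groups did not overlap for Osgin1, Hmox1, Gclc and Txnrd1 in PC, against 24.4% of all genes. For the difference between the genotype effects, 3 of 10 genes were called, all toward PC, against 18.7% of all genes, 11.5% toward PC and 7.27% toward nonPC. With library totals 4 of 10 were called, 3 toward PC and Gpx2 toward nonPC, and over all genes 751 toward PC and 1836 toward nonPC (1496 and 949 with TMM).

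**Figure D4:**
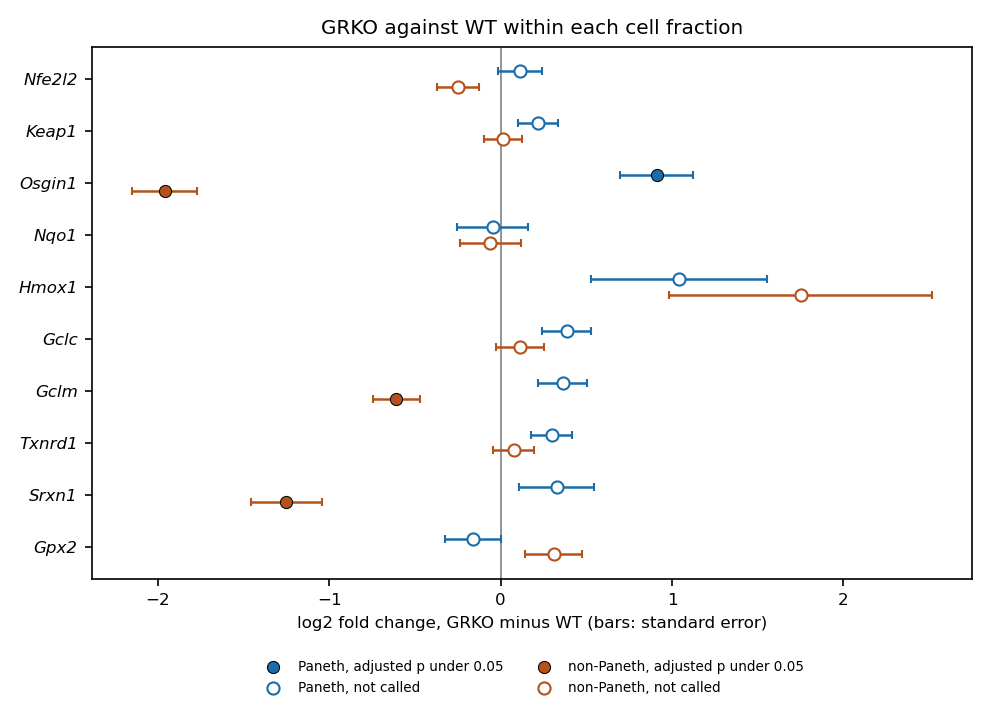
Log2 fold change of GRKO against WT (x axis) for the 10 genes in PC and in nonPC, with bars of 1 SE from the edgeR fit and filled circles for adjusted p under 0.05. Osgin1 lies at 0.91 in PC and -1.96 in nonPC, Srxn1 at 0.33 and -1.25 and Gclm at 0.36 and -0.61, whereas Nqo1 lies near 0 in both.

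Cell type markers moved with the genotype in nonPC. The 6 enterocyte markers summed to 16600 to 19200 TMM CPM in WT nonPC and to 3530 to 4480 in GRKO nonPC, and 2 of 6 were called, both lower. The 4 stem cell markers summed to 3340 to 4550 and 4320 to 5650, with 3 of 4 called higher. The 3 proliferation markers summed to 538 to 605 and 913 to 994, all called higher. Of the 4 goblet cell markers 2 were called, both lower, and the list summed to 4670 to 10300 and 4580 to 6040. The 3 tuft cell markers summed to 2.04 to 6.22 and 41 to 172, and the 2 that could be tested were both called higher. Sums of 5 immediate early and heat shock genes that respond to tissue dissociation were 521 to 991 in WT nonPC and 124 to 268 in GRKO nonPC, and 444 to 1360 and 123 to 286 in PC. These sums were carried by the immediate early genes Fos, Jun and Egr1, with means of 377, 270 and 79.7 in WT nonPC and 66.2, 85 and 22.5 in GRKO nonPC. The heat shock genes did not fall, with Hspa1a at 0.43 and 0.443 and Hspa1b at 2.54 and 2.88 in WT and GRKO nonPC. The part of these differences in the results for Osgin1, Srxn1 and Gclm was not tested. In PC none of the marker lists held a called gene between genotypes by edgeR, yet some differed. Tuft cell markers summed to 107 to 291 TMM CPM in WT PC and 276 to 729 in GRKO PC, with a median log2 difference of 1.34 over the 2 tested. The goblet cell gene Clca1 was 42.4, 119 and 179 in WT PC and 1060, 918 and 257 in GRKO PC (log2 difference 2.71, adjusted p = 0.0576), and the stem cell gene Olfm4 was 7480, 7240 and 6940 and 4630, 3420 and 5160 (-0.71, adjusted p = 0.0519). Neither overlapped between genotypes. Their part in the Osgin1 difference in PC and in the pathway genes called there was not tested.

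The other genes of the pathway were taken from 7 lists of 81 genes in all, of which 77 passed the filter on low counts. Between WT PC and WT nonPC, 13 were higher and 42 lower (71.4%, median log2 fold change -0.58), against 24% and 26.7% of all genes. With library totals 5 were higher and 59 lower. Among glutathione transferases, which couple glutathione to electrophiles, 2 of 17 were higher and 12 lower, and Gsta1 was at -4.66 on the log2 scale (edgeR adjusted p = 3.59e-05). Ggt1, which breaks down glutathione outside the cell, was at -5.37 (adjusted p = 0.00113) and Abcc2, an exporter of glutathione conjugates, at -3.23 (adjusted p = 5.37e-06). Of the 6 genes listed for NADPH supply, 5 were lower and none was higher, with Pgd of the pentose phosphate pathway at -1.28 (adjusted p = 4.61e-07). Among the 13 genes that were higher were Chac1, which degrades glutathione, at 4.07 (adjusted p = 4.78e-05), and the exporter Abcc4 at 2.91 (adjusted p = 1.83e-07). In GRKO mice 13 of the 77 were higher and 34 lower (61%, median -0.29), against 17.9% and 21.2% of all genes, and with library totals 4 and 63.

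Between genotypes in nonPC, 8 of the 77 genes were higher and 26 lower (44.2%, median log2 fold change -0.24). The total was near the 37.3% of all genes called, but all genes split more evenly, with 17.5% higher and 19.8% lower. With library totals 16 were higher and 17 lower. The list of Nrf2 partners and regulators had 5 of 9 genes lower and none higher. It mixes partners of Nrf2 with genes such as Cul3, whose ligase holds Nrf2 low, so this count gives no direction of Nrf2 activity. Bach2 (log2 fold change -2.03, edgeR adjusted p = 0.000494), Maff (-1.08, adjusted p = 0.00504) and Mafg (-0.53, adjusted p = 0.0201) were named to complete this count. Of the other two, Mafk, a small Maf protein that pairs with Nrf2, was 45.1, 44.6 and 36.1 TMM CPM in WT nonPC and 21.2, 17.7 and 22.3 in GRKO nonPC (log2 fold change -1.04, edgeR adjusted p = 9.31e-05). The autophagy receptor Sqstm1, which binds Keap1, was at 108, 120 and 112 and at 74.2, 75.9 and 76.3 TMM CPM (-0.58, adjusted p = 0.00916). Both genes were lower in every GRKO nonPC library. Glutathione transferases had 2 of 17 higher and 8 lower. Ggt1 fell by 2.27 (adjusted p = 0.0464). Glrx, a glutaredoxin that removes glutathione from proteins, was 203, 225 and 228 TMM CPM in WT nonPC and 71.8, 70.5 and 92.5 in GRKO nonPC (-1.48, adjusted p = 9.65e-06). The peroxisomal enzyme catalase, encoded by Cat, fell by 1.15 (adjusted p = 0.00012) and the peroxiredoxin gene Prdx5 by 1.36 (adjusted p = 8.42e-05). Me1, the NADPH-producing malic enzyme, went the other way, at 1.19 (adjusted p = 0.0301).

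In PC, 2 of the 77 genes were higher in GRKO and 2 lower (5.19%, against 3.22% of all genes). Me1 rose (log2 fold change 2.32, edgeR adjusted p = 0.0448), as did Nfe2l1, a relative of Nrf2 (0.47, adjusted p = 0.0486). Me1 was low, with means of 1.84 TMM CPM in WT PC and 9.01 in GRKO PC (3.22 to 12.7). Both means lie under the 10 TMM CPM set for naming a gene. The lipid peroxide reductase gene Gpx4 fell by 0.70 (adjusted p = 0.0492) and Mgst1, a microsomal glutathione transferase, by 0.76 (adjusted p = 0.0436). All 4 adjusted p-values lie close to the threshold. No gene of the 77 was called in PC when GRKO PC replicate 2 was left out, with 17 at an unadjusted edgeR p under 0.05 there. None was called either without WT PC replicate 1 or 2, without GRKO nonPC replicate 1 or 2, or without WT nonPC replicate 2 or 3. The same held with library totals and in a fit on only the PC groups. DESeq2 with all libraries called 13. The genotype effects of both fractions differed for 16 of the 77, with 15 toward PC and 1, the peroxiredoxin gene Prdx4, toward nonPC (20.8%), against 18.7% of all genes, 11.5% toward PC and 7.27% toward nonPC. With library totals these were 8 and 6. Me1 in PC and Prdx4 were named after their values were seen. Abcc2 had the largest difference of the named genes, 3.15 (adjusted p = 0.00096). It was 124, 96.5 and 105 TMM CPM in WT nonPC and 24.8, 16.4 and 42.7 in GRKO nonPC, whereas in PC it was 10.5, 13.2 and 11 in WT and 20.3, 26 and 32.4 in GRKO.

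**Figure D5:**
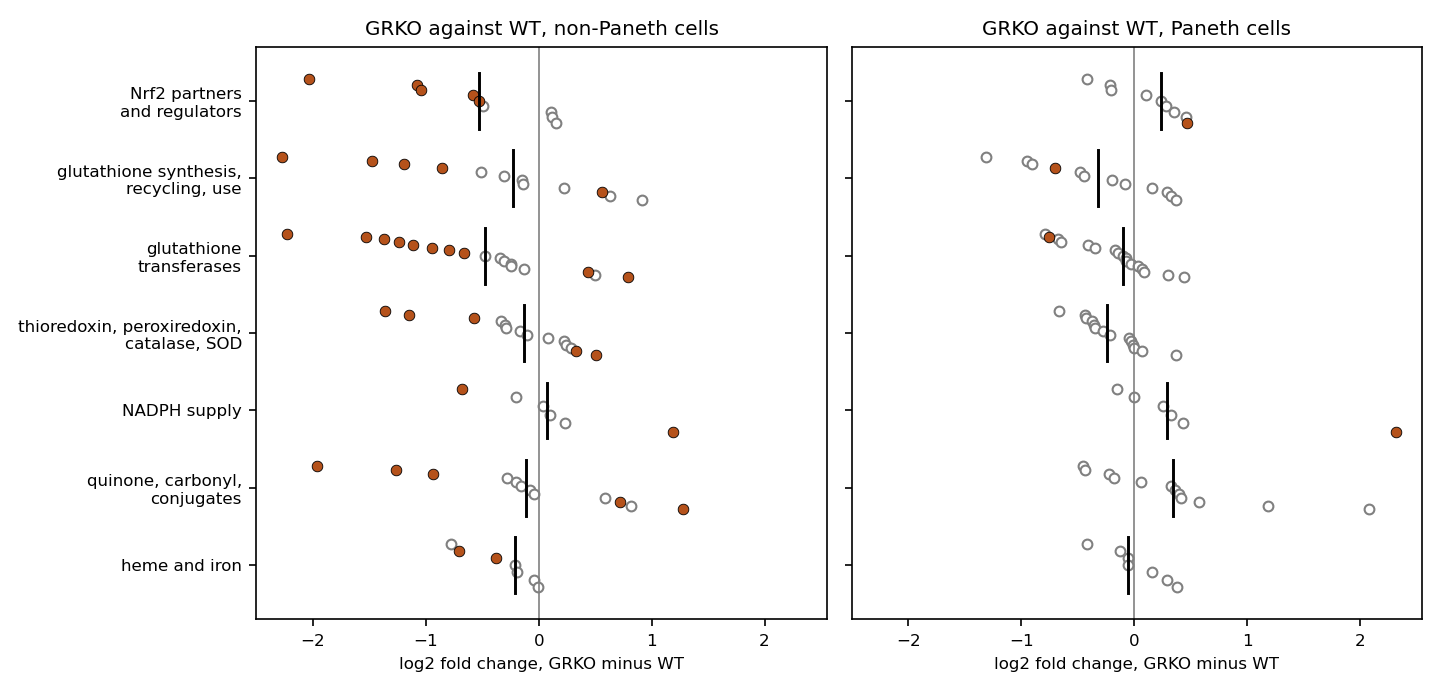
Log2 fold change of GRKO against WT (x axis) in nonPC and in PC for the 77 other pathway genes, 1 circle per gene, in rows by list, with filled circles for edgeR adjusted p under 0.05 and a vertical line at each list's median. In nonPC 26 filled circles lie below 0 and 8 above, and in PC 2 lie on each side.

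All genes whose promoter holds the strict motif were counted in the same way. Osgin1 and Srxn1 hold it only as TGAGTCAGC, of the form that was added after the first search. Of the 271 tested, which include Osgin1 and Srxn1, 13.7% were higher and 28.4% lower in GRKO nonPC than in WT nonPC, with a median log2 fold change of -0.09. Of the 12110 protein-coding genes tested these shares were 18.7% and 20.1%, with a median of 0.04. For the difference between the genotype effects, 17% were called toward PC and 5.54% toward nonPC, against 12.2% and 7.7% of protein-coding genes. In PC the shares of strict-motif genes were 2.21% higher and 1.85% lower, against 1.82% and 1.45%. The 7049 genes with the loose core had 18.1% higher and 20.9% lower in nonPC, close to all protein-coding genes.

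The genes whose log2 levels ran most like those of the list over the 12 libraries were also looked up among 9459 genes. The libraries form 4 groups, so that a Pearson r mostly describes the order of 4 means. Osgin1 was most like Spns2 (r = 0.989) and Acad11 (r = 0.986), and Srxn1 most like Anpep (r = 0.995), which encodes a brush border peptidase. Nfe2l2 was most like the glycolytic gene Tpi1 (r = 0.989) and Gclm most like Erlin1 (r = 0.989). Gpx2 had no close match, its best being Apobec3 (r = 0.875).

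Some of these genes share bases with others in the annotation. Antisense lncRNAs that the table also lists cover 10.9% of the exonic length of Keap1 (Gm16754) and 10.9% of that of Gclm (Gm17494), and a pseudogene on the same strand, Gm6061, covers 6.18% of Gclm. Which strand the authors counted is not stated, so reads of these stretches may be missing from, or added to, the counts of Keap1 and Gclm.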

How the data were processed

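Paneth and non-Paneth crypt cells of WT and GRKO mice were profiled by single-end, stranded TruSeq RNA-seq in 12 libraries. The authors trimmed reads with Trimmomatic 0.39 and aligned them with STAR 2.7.10a to mm39 (GRCm39), with an annotation given as gencode v28. The deposited values are raw counts per gene, without normalization; reads mapping to several places or overlapping several genes are not counted. All 55414 genes were kept, of which 54749 were named through GENCODE vM39.

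Tests used edgeR 4.0.16 under R 4.3.3 (filterByExpr, TMM, robust glmQLFit and glmQLFTest, 1 mean per group over 12 libraries, Benjamini-Hochberg over 13057 genes, threshold 0.05). The script was tested on simulated data. The alternatives were DESeq2 1.42.0, RLE factors, library totals, scaling without Lyz1 and the Defa genes, no filter, at least 10 counts in every library of a group compared, a replicate block, fits restricted to the groups of a comparison, and each library left out in turn. Ratios without each library were added after the data were seen. The precision of each value is limited by 3 libraries per group. Named genes are the 10 genes in all comparisons and, per comparison and pathway list, from at most 2 genes with the largest change among those called, without overlap between groups and with at least 10 TMM CPM in a group. Not all of these are printed, and exceptions are stated. The genes and lists were chosen with earlier results of these data known. Promoter windows and coordinates are from GRCm39 with GENCODE vM39 canonical start sites. The titles give replicate numbers, read here as 1 mouse per number and genotype. After group means were removed the same-numbered WT Paneth and non-Paneth libraries correlated at 0.382, 0.245 and 0.283. For GRKO the values were -0.039, 0.262 and 0.481. Same-numbered libraries of different genotypes, which cannot share a mouse, correlated at 0.111, 0.159 and -0.0971 in PC. In nonPC they correlated at -0.104, 0.174 and -0.104. Some of these also pass the limit of 0.1 set for pairing, so it cannot decide whether the numbers pair the libraries.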

Additional observations from a re-analysis of the deposited data

Results flagged for a closer look

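The effect of the genotype differed between PC and nonPC by the edgeR interaction test for 3 of the 10 genes, with log2 differences of 2.87 for Osgin1, 1.58 for Srxn1 and 0.97 for Gclm. It also differed for other pathway genes, 15 of 77 toward PC and 1, Prdx4, toward nonPC. Those named by the rule of at most 2 per list were Mafk (1.5), Sqstm1 (0.94), Glrx (1.04), Slc3a2 (1.01), Gsta4 (1.46), Gstm4 (1.09), Cat (1.10), Prdx5 (0.99), Abcc2 (3.15), Ugdh (1) and Ftl1 (0.54). A positive value means that GRKO against WT was more positive in PC than in nonPC. Over all genes 11.5% were called toward PC and 7.27% toward nonPC.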

How the results depend on the processing

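The replicate block, with mice as read from the replicate numbers between fractions and replicate numbers between genotypes, changed no call of the 10 genes. In PC between genotypes the block raised the calls over all genes from 420 to 977 and of other pathway genes from 4 to 9. It moved no other count by over 1.5 times. The calls in PC depended most on the setting. DESeq2 gave 1421 genes and 13 pathway genes, no filter 1780 and 12, library totals 2 and 0 with 0 of the 10 genes (3135, 27 and 4 at an unadjusted p under 0.05 in edgeR), and a fit on only these groups 0 and 0 with 0 of the 10 (2341, 23 and 2 at an unadjusted p under 0.05 in edgeR). Without 1 library the calls in PC ranged over 0 to 1619 genes, 0 to 16 pathway genes and 0 to 1 of the 10 genes, with 0 without GRKO PC replicate 2 (2061 genes at an unadjusted p under 0.05) and the most without GRKO PC replicate 1. No pathway gene was called in PC either without WT PC replicate 1 or 2, GRKO nonPC replicate 1 or 2, or WT nonPC replicate 2 or 3. For the interaction the calls ranged over 1562 to 2610 genes, fewest without WT nonPC replicate 2 (main 2445), and 9 to 20 pathway genes, fewest without GRKO PC replicate 2 (main 16). Library totals called 10 of the 10 genes and 10785 genes between GRKO fractions (5 and 5116 with TMM) and 5 of the 10 between nonPC genotypes (3 with TMM), and it reversed Gpx2 between WT fractions (-0.42) and Gclc between GRKO fractions (-0.72). Of the single-gene values under all alternatives, 938 stayed on the same side of the threshold, 27 lost the call, 19 gained it and 2 reversed. Of the 938, 41 changed sign without being called in either setting, 5 of them with library totals, and none of these was above 0.26 in size. Hmox1 in WT nonPC rests on 6 counts, so its fold is imprecise, and between WT fractions it could not be fitted under the stricter filter or on those groups alone.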
